A study of Mus musculus with 14 samples.

Results

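A star strand is the less used arm of a microRNA (miRNA) hairpin. Dicer cuts the hairpin into a short duplex. One arm, the guide, is usually loaded into an Argonaute protein and pairs with target mRNAs through its seed, bases 2 to 8 from the 5′ end. The other arm, once written with an asterisk, is usually degraded, although several hairpins of the nervous system keep both arms. An arm that stays loaded brings a seed of its own and so another set of targets. Which arm is kept depends in part on how firmly each 5′ end of the duplex is paired and on the base that stands first, and Argonaute favours a first base U or A. The array carried 115 such strands of the mouse, chosen only by a name that starts with mmu- and ends with an asterisk, among 566 mouse miRNAs in all. The other 451 were guide strands, arms named 5p or 3p, and miRNAs known from 1 arm.

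The tissue was the corpus callosum, the large white matter tract between the hemispheres, dissected from male wild-type mice that were 7 to 8 weeks old when the diets began. Cuprizone, a copper chelator that kills oligodendrocytes and strips myelin from this tract, was mixed into powdered chow at 0.2 to 0.4%. The control group (4 arrays) ate normal chow, the 4wd group (4 arrays) ate cuprizone for 4 weeks, the 2dr group (4 arrays) then returned to regular chow for 2 days, and the 2wr group (2 arrays) for 2 weeks. All the groups other than control carried the same 4 weeks of cuprizone. The comparisons ask which star strands, and which balances between the arms of a hairpin, moved while myelin was lost and while it was regained. Each array held the RNA of 1 sample, so p-values measure the spread between these arrays. The total signal summed over mouse miRNAs ran from 45664 to 173924, and 4 of the 7 oligodendrocyte miRNAs, all 9 neuronal miRNAs and 1 of 5 myeloid miRNAs on the array were detected on all 14 arrays. RNA came from whole tissue, so fewer cells of a type and less RNA per cell cannot be told apart.

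Mature sequences are shown here for the hairpins on which the results turn, so that the seeds brought by the asterisked arm can be set beside those of the guide. They come from RefSeq (GRCm38.p6), which held 25 of the 26 star strands that entered the tests and 22 of their 25 guide arms, with miR-124*, miR-124, miR-140 and miR-34c the ones not matched. Capitals mark the seed. The first set holds the pairs in which the asterisked arm was the brighter on most arrays, with the guide arm under it where it was matched.
miR-9* (miR-9-3p): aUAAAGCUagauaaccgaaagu
miR-9 (miR-9-5p): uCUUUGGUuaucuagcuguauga
miR-330* (miR-330-5p): uCUCUGGGccugugucuuaggc
miR-330 (miR-330-3p): gCAAAGCAcagggccugcagaga
miR-299* (miR-299a-5p): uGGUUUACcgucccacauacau
miR-299 (miR-299a-3p): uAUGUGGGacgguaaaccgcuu
miR-674* (miR-674-3p): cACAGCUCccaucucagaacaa
miR-674 (miR-674-5p): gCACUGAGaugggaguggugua
miR-140* (miR-140-3p): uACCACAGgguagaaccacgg

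The second set holds some of the pairs whose level or strand ratio is described below, again with the seed in capitals. Other pairs with p-values as small, such as those of miR-7a*, miR-431* and miR-300*, are not shown.
miR-411* (miR-411-3p): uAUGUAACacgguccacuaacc
miR-411 (miR-411-5p): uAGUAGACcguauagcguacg
let-7d* (let-7d-3p): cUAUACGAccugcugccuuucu
let-7d (let-7d-5p): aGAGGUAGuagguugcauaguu
miR-29b* (miR-29b-1-5p): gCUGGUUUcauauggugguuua
miR-29b (miR-29b-3p): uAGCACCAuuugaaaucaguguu
miR-138* (miR-138-1-3p): cGGCUACUucacaacaccaggg
miR-138 (miR-138-5p): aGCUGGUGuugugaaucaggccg
miR-34c* (miR-34c-3p): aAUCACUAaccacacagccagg

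The third set shows the star strands of the miR-30 family, the only matched ones among those tested that shared a seed.
miR-30a* (miR-30a-3p): cUUUCAGUcggauguuugcagc
miR-30e* (miR-30e-3p): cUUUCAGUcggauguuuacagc
miR-30c-1* (miR-30c-1-3p): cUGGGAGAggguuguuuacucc
miR-30c-2* (miR-30c-2-3p): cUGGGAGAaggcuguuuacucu

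On GRCm38.p6, miR-411* lies at chr12:109710225-109710246 on the plus strand, within the Dlk1-Dio3 imprinted region, whose maternally expressed RNAs carry one of the largest miRNA clusters of the mouse. The 9 tested star strands of that region span chr12:109590502-109738495, or 148 kb. miR-330* lies at chr7:19181486-19181507 on the plus strand, miR-674* at chr2:117185186-117185207 on the plus strand, miR-140* at chr8:107551288-107551308 on the plus strand, and let-7d* at chr13:48536024-48536045 on the minus strand. miR-29b* is the 5p arm of the hairpin at chr6:31063067-31063088 on the minus strand, and miR-34c* lies at chr9:51103044-51103065 on the minus strand. miR-9* has 3 genomic copies, of which that on chromosome 13 lies at chr13:83738858-83738879 on the plus strand.

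The 25 matched star strands carried 23 different seeds. The arms of miR-30a* and miR-30e* shared the seed UUUCAGU and 21 of 22 bases, and those of miR-30c-1* and miR-30c-2* shared UGGGAGA and 19 of 22. Of the 25, 17 were 3p and 8 were 5p arms, whereas 8 of the 22 matched guides were 3p. The first base was C in 9 star strands, U in 7, A in 6 and G in 3. Among the guides it was U in 12, A in 7, G in 3 and C in 0. Of the first set, miR-330*, miR-299* and miR-140* began with U, miR-674* with C and miR-9* with A. These counts describe names and sequences only, and no test was made on them.

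Star strands were mostly below the detection call of the image software. Of the 115, 67 (58.3%) were detected on no array, against 183 (40.6%) of the other 451 mouse miRNAs. Only 14 (12.2%) were detected on all 14 arrays, against 156 (34.6%) of the others. The remaining 34 were detected on some arrays, and 12 of these reached detection throughout 1 or more groups, the condition for entering a test, so that 26 star strands (22.6%) were tested against 199 (44.1%) of the others. Every one of the 48 star strands detected anywhere was detected on at least 1 control array. No star spot set was saturated.

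The 14 star strands detected on all arrays were let-7d*, miR-9*, miR-22*, miR-29b*, miR-29c*, miR-30a*, miR-30e*, miR-136*, miR-140*, miR-299*, miR-330*, miR-376b*, miR-411* and miR-674*. The other 12 tested were miR-7a*, miR-34c*, miR-124*, miR-138*, miR-154*, miR-181a-1*, miR-30c-1*, miR-30c-2*, miR-300*, miR-376a*, miR-382* and miR-431*. miR-34c* and miR-376a* entered through the control group alone and miR-431* through the 2wr group alone, so a difference of these 3 from the group that admitted them was partly built into the filter. The 22 detected on some arrays but not tested ranged from 1 array (miR-30b*, miR-31*, miR-106b*, miR-193* and miR-744*) to 9 arrays (miR-433*). Of these 22, 13 were detected on slide 2 alone and 2 on slide 1 alone, the 2 slides on which the arrays lay. Slide 1 held 8 arrays and slide 2 held 6, and each of the 4 groups lay on both.

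Fewer star strands were detected at 4wd. The 4 control arrays detected 30, 32, 33 and 42 of the 115, and the 4wd arrays 26, 24, 22 and 25, so every 4wd array lay below every control array. The 2dr arrays detected 27, 17, 33 and 29, and the 2wr arrays 23 and 41, and both groups overlapped control. Within slides, the mean 4wd count differed from control by -6 on slide 1 and by -14 on slide 2. The other mouse miRNAs numbered 206 to 245 on control arrays and 184 to 215 on 4wd arrays. These ranges overlapped over both slides, but on each slide every 4wd array again lay below every control array, with mean differences of -22 on slide 1 and -27.5 on slide 2. A lower count at 4wd was therefore not particular to star strands. The mean counts were 34.25 in control and 24.25 at 4wd for star strands, and 225 and 200.25 for the others. Relative to control the fall was the larger for star strands, and that contrast was not tested. The summed signal moved with the counts, at 85417 to 173924 on control arrays and 50187 to 90452 on 4wd arrays, and its part in the counts was not tested.

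**Figure D1:**
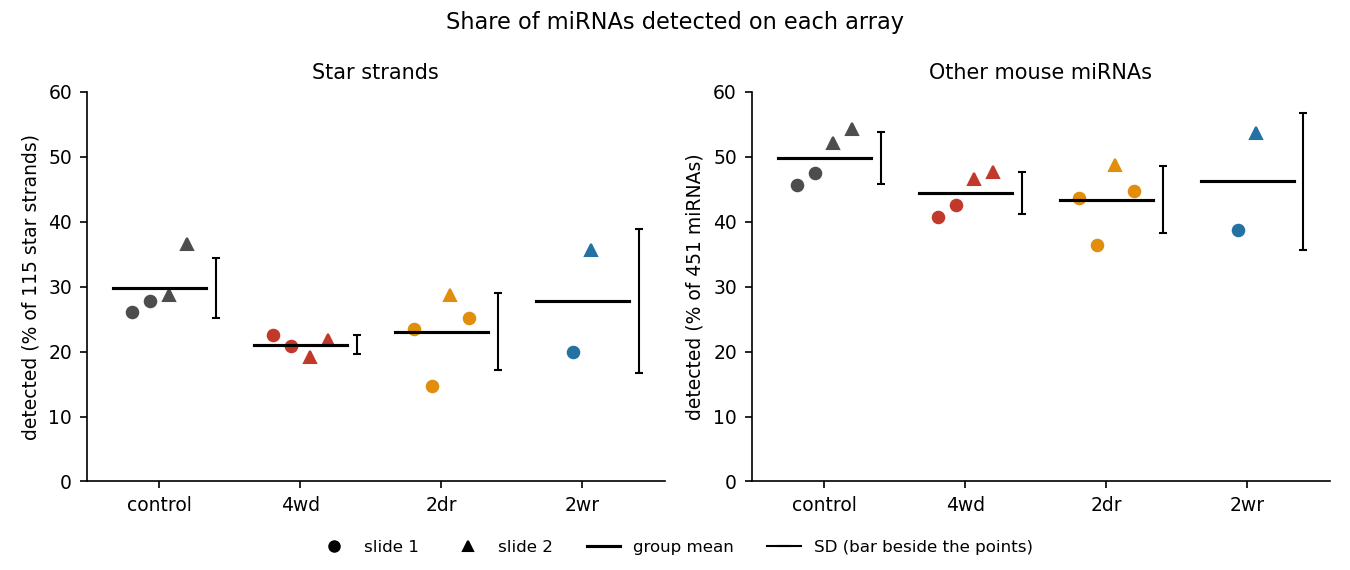
Share of the 115 star strands (left) and of the 451 other mouse miRNAs (right) detected on each array, in percent of each set, by group. Circles are arrays of slide 1, triangles are arrays of slide 2, the horizontal line is the group mean and the bar beside the points is the SD. All 4wd arrays lie at 19.1 to 22.6% of star strands, below the lowest control array at 26.1%, and the other miRNAs also lie lower at 4wd than in control on each slide.

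Detection of a star strand followed the level of its guide. Levels here are log2 of the total signal of a miRNA over the array's 75th percentile among the 170 miRNAs detected on all arrays, so 0 is that percentile and -9.15 is the floor given to signals too dim to measure. For 103 star strands the array also carried a guide of the same name without the asterisk. The guides had a median control level of -1.60 where the star was detected on all arrays (14 pairs), of -3.23 where it was detected on some (28 pairs) and of -5.89 where it was detected on none (61 pairs). The link was loose, because 23 of those 61 undetected star strands belonged to guides detected on all 14 arrays. Among these, chosen after their values were seen, let-7f* belonged to a guide at 3.28, let-7b* to one at 2.87, let-7g* to one at 1.97 and let-7i* to one at 1.72. The let-7 family, conserved regulators of growth and of the timing of differentiation, thus gave bright guides and, apart from let-7d* and a let-7a* seen on 3 arrays, no detected star strand among the 7 on the array.

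The star strands together made up 1.46 to 2.62% of the summed mouse miRNA signal of an array, and miR-9* alone made up 40.6 to 70.8% of that share. miR-9 comes from a hairpin abundant in the nervous system, where both arms are known to act on parts of the repressor complex that keeps neuronal genes off in other cells. The mean control level of miR-9* was 1.62 ± 0.54 (SD, n = 4), which was 12.7 times the signal of the next star strand, miR-140*. The remaining 9 of the 10 highest in control lay in a narrow band. They were miR-140* at -2.05, miR-29c* at -2.79, miR-330* at -2.91, miR-30a* at -3.03, miR-30e* at -3.12, miR-411* at -3.20, miR-674* at -3.31, miR-136* at -3.62 and miR-299* at -4.00. Each step between neighbours in that order, other than the first, was below 1 on the log2 scale, and since each miRNA has its own probes the order is one of signals and not of molecules.

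The signal of a star strand was usually well below that of its guide. Across the 22 pairs with both arms tested, the log2 ratio of star to guide in control had a median of -3.16, with 14 pairs below -2 and 3 above 0. Among the 20 of these pairs in which both arms were above the floor on every control array, it ran from -8.46 for miR-124*, from the hairpin of an abundant neuronal miRNA, to 2.50 for miR-674*. miR-330* exceeded its guide by more, but miR-330 was at the floor on 2 of the 4 control arrays, so the size of that ratio was not measured. Such a ratio compares different probes and is not a ratio of molecules, whereas its change between groups cancels a difference between the probes that is constant over arrays. A difference that moves with the slide, as described for miR-9 below, is not cancelled in this way, and neither is a signal at the floor.

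**Figure D2:**
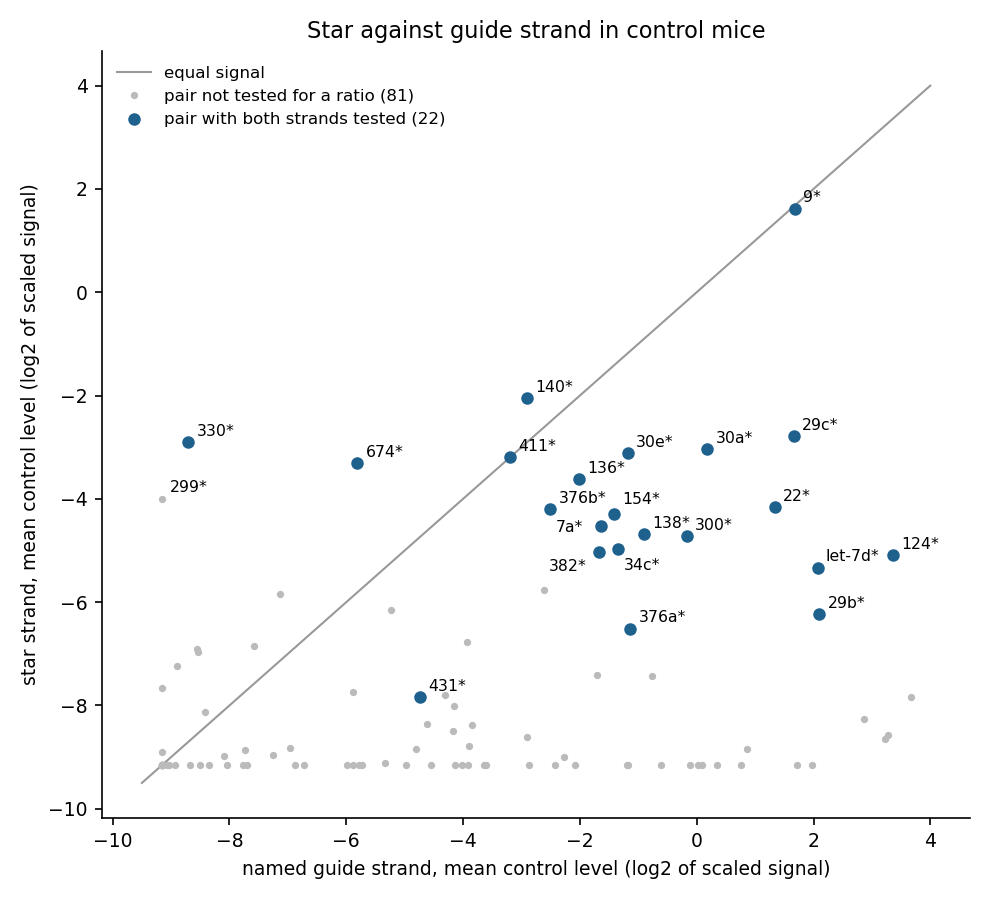
Mean control level of each star strand (vertical axis) against that of the guide of the same name (horizontal axis), both as log2 of scaled signal, for the 103 pairs on the array. The line marks equal signal and the large points are the 22 pairs with both arms tested, of which miR-330*, miR-674* and miR-140* lie above the line while most lie far below it.

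In 5 pairs the asterisked arm gave the larger signal on more than 7 of the 14 arrays. For miR-330* the control level was -2.91 ± 0.29 (SD, n = 4) and detection was complete, whereas miR-330 was detected on the 4 control arrays alone, at or near the floor. For miR-299*, of the Dlk1-Dio3 cluster, it was -4.00 ± 0.44 (SD, n = 4), again with complete detection, and miR-299 was detected on 0 arrays. For these hairpins the array measured little besides the arm named as minor.

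miR-674* was at -3.31 ± 0.07 and miR-674 at -5.81 ± 0.58 (SD, n = 4) in control, a log2 ratio of 2.50 ± 0.64. miR-140*, from a hairpin within the gene of the ubiquitin ligase Wwp2 and best known from cartilage, was at -2.05 ± 0.19 against -2.91 ± 0.62 for miR-140, a ratio of 0.86 ± 0.68. The ratio of miR-140* stayed above 0 on all 14 arrays, from 0.17 to 1.79. The fifth pair was miR-9*, which exceeded miR-9 on 8 arrays. miR-411* lay on the line of equal signal, with a control ratio of -0.01 ± 0.10 (SD, n = 4).

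The 8 arrays on which miR-9* exceeded miR-9 were the 8 arrays of slide 1. The level of miR-9* was 2.20, 1.74, 0.89 and 1.65 on the control arrays, 1.77, 1.64, 1.31 and 0.41 on the 4wd arrays, 1.75, 1.23, 1.60 and 1.39 on the 2dr arrays, and 1.12 and 1.27 on the 2wr arrays, and these groups overlapped. It also overlapped between slides. The guide did not, because miR-9 ran from 0.34 to 0.99 on slide 1 and from 2.19 to 3.00 on slide 2, so the ratio ran from 0.55 to 1.21 on slide 1 and from -1.99 to -1.20 on slide 2. Which arm of miR-9 was the brighter thus moved with the slide, and no direction between the arms is taken from these arrays.

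Within slides the ratio of miR-9* was lower at 4wd and 2wr than in control on every array. The difference of 4wd from control was -0.37 on slide 1 and -0.55 on slide 2, and with the slide as a term in the limma fit it was -0.46 with an SE of 0.13 and an adjusted p of 0.0531, short of the threshold. That of 2wr was -0.58 and -0.37 within the slides and, with the slide as a term, -0.47 with an SE of 0.16 and a limma adjusted p of 0.216. Without that term the SEs were 0.91 and 1.11 and the limma adjusted p 0.859 and 0.956. With the slide as a term, none of the 22 star ratios was called in any comparison. At 4wd the limma adjusted p was 0.0531 for miR-9*, miR-34c* and miR-411*, whose ratios were all lower than in control. The ratios of miR-29b* (limma adjusted p = 0.205) and miR-136* were higher than in control at 4wd. That of miR-136* differed by 0.47 with an SE of 0.16 (limma adjusted p = 0.117), at 0.53 and 0.41 within the slides. Slides did not overlap for 1 of the 26 star levels (miR-138*), for 3 of the 22 guide levels (miR-9, miR-22 and miR-138) and for 4 of the 22 ratios (miR-9*, miR-124*, miR-136* and miR-674*), against 21 (9.33%) of all 225 tested levels and 8 (24.2%) of all 33 tested ratios.

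**Figure D3:**
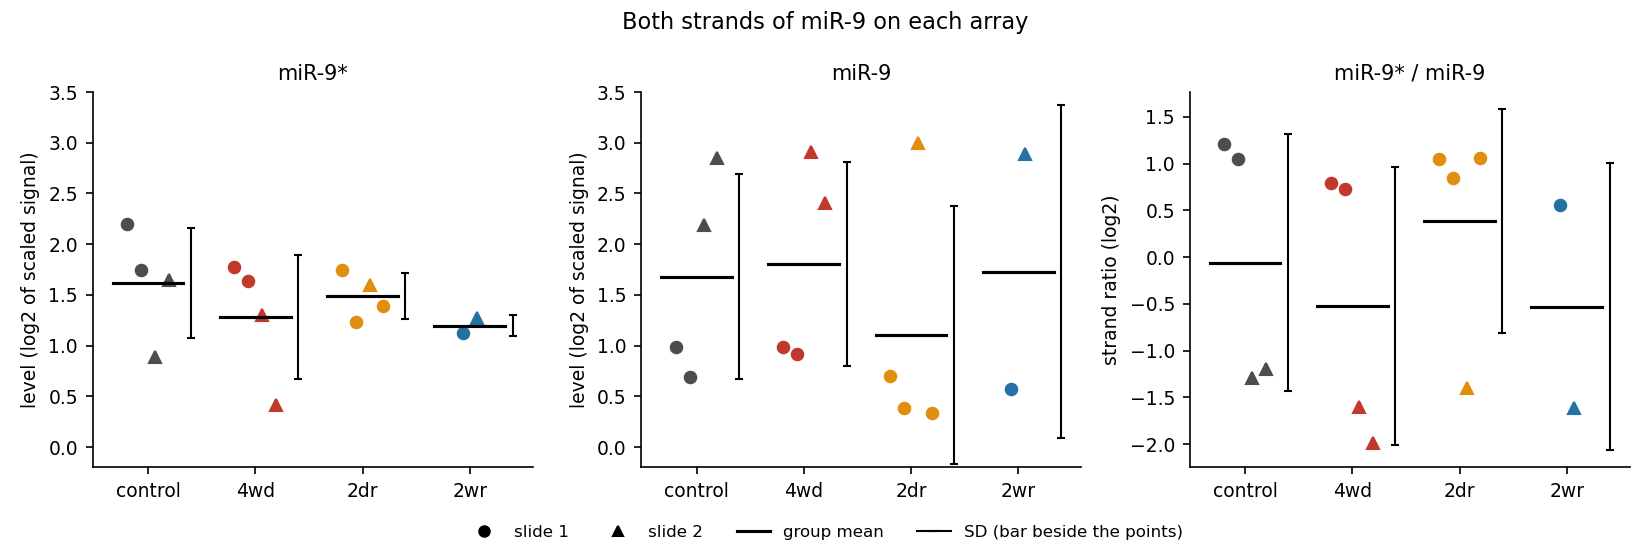
Level of miR-9* (left), level of miR-9 (middle), both as log2 of scaled signal, and their log2 ratio (right) on each array by group. Circles are arrays of slide 1, triangles are arrays of slide 2, lines are group means and bars beside the points are SDs. In every group the ratio is above 0 on slide 1 and below -1 on slide 2, and the separation comes with the guide.

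No star strand changed in level by the criteria used, a limma adjusted p under 0.05 over all 225 tested miRNAs and at least a 2-fold difference. That held for 4wd against control, where 0 of 26 star strands and 0.444% of all tested miRNAs were called, for 2dr against control (0 of 26, against 0.889%), for 2wr against control (0 of 26, against 0%), for 2wr against 4wd (0 of 26, against 0%) and for the test across the 4 groups (0 of 26, against 0.444%). At an unadjusted limma p under 0.05, the star strands numbered 1 of the 23 miRNAs at 4wd, 3 of 27 at 2dr, 0 of 2 at 2wr, 1 of 11 for 2wr against 4wd and 1 of 20 across the 4 groups. The analysis of variance named in the methods, with Benjamini-Hochberg adjustment, also called 0 star strands in each of these comparisons. After normexp background correction, by contrast, 17 of the 26 star strands were called at 4wd, all higher. Of all 225 miRNAs 83 were called, and the median over all miRNAs moved to 0.82. That correction added an offset of 50 to each spot before scaling and set no floor, and the part of the offset in these calls was not tested. The calls on the scale used here were few, and the members named next are described by their values.

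Across the 26, the median log2 difference of 4wd from control was -0.08, with 18 below 0, beside a median of 0.03 over all 225. At 2dr it was -0.40, with 24 of 26 below 0, beside -0.25 and 71.6% below 0 over all 225. The 2dr shift depended on the scaling of the arrays, since the medians of star strands and of all miRNAs were -0.12 and 0.03 when arrays were scaled to the percentile of all mouse miRNAs, and 0.00 and -0.05 after quantile normalization. At 2wr the median was -0.10, beside -0.08 over all 225. A general difference of star strands at 2dr cannot be told apart from the scaling.

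The star strands of the Dlk1-Dio3 cluster, an imprinted group of miRNAs rich in brain, were the largest list, with 13 on the array, 11 detected on some array, 4 on all and 9 tested. None was called in any comparison. Their median difference was -0.01 at 4wd (5 of 9 below 0), -0.49 at 2dr (9 of 9 below 0) and -0.16 at 2wr (6 of 9 below 0), beside the medians over all miRNAs just given. Their 2dr differences ran from -1.29 for miR-431* to -0.11 for miR-154*.

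miR-411* of this cluster had the smallest p of any star strand. Its level was -3.22, -3.15, -3.41 and -3.01 on the control arrays, -3.64, -3.36, -3.40 and -3.99 on the 4wd arrays, -3.80, -4.39, -3.49 and -4.04 on the 2dr arrays, and -3.54 and -3.50 on the 2wr arrays. All 4 arrays of 2dr lay below all 4 of control, while 2 of the 4wd arrays lay just above the lowest control array. The difference at 2dr was -0.73 with an SE of 0.22 (limma adjusted p = 0.201, unadjusted exact two-sided permutation p = 0.0286, the smallest that 4 against 4 arrays can give). It was -0.89 within slide 1 and -0.28 within slide 2. The differences at 4wd and 2wr were -0.40 and -0.32, with limma adjusted p of 0.553 and 0.996. After normexp background correction the 2dr and 4wd differences turned to 0.020 and 0.80.

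The other star strand whose 2dr arrays all lay below control was miR-330*. Its level was -3.11, -2.76, -2.57 and -3.19 on the control arrays and -3.66, -3.76, -3.54 and -3.19 on the 2dr arrays. The groups were parted by less than 0.01 at their nearest arrays. The difference was -0.63 with an SE of 0.23 (limma adjusted p = 0.368, exact permutation p = 0.0286) and was -0.61 and -0.66 within the slides. Such a separation was found for 2 of the 26 star strands and for 4% of all 225 miRNAs. In the other directions at 4wd and 2dr it was found for 0 of 26 star strands, beside 6.22% of all miRNAs for 4wd above control, 2.67% for 4wd below control and 1.78% for 2dr above control. At 2wr, with 2 arrays, miR-124*, miR-300* and miR-411* lay below all control arrays (3 of 26, beside 3.56% of all miRNAs) and miR-22* above them (1 of 26, beside 3.11%).

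miR-431*, also of the Dlk1-Dio3 cluster, was detected on 3 of 4 control arrays, on 2 of 4 at 4wd, on 0 of 4 at 2dr and on both 2wr arrays. Its mean control level was -7.84, with control replicate 1 at the floor of -9.15. The 2dr arrays lay at or next to that floor, so the groups overlapped (exact permutation p = 0.143). Since both groups held values at the floor, the size of the difference was not measured. The fitted difference was -1.29, with a limma adjusted p of 0.368. This strand had the lowest control level of the 26 tested.

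miR-300* of the same cluster showed its lowest values at 2wr. Its level was -4.61, -4.59, -4.92 and -4.74 on the control arrays, -4.46, -4.45, -4.39 and -4.74 on the 4wd arrays, -4.51, -5.83, -4.81 and -5.68 on the 2dr arrays, and -5.05 and -5.58 on the 2wr arrays. Both 2wr arrays lay below all control and all 4wd arrays, but not below all 2dr arrays. The difference from control was -0.60 (limma adjusted p = 0.996, exact permutation p = 0.0667, the smallest that 2 against 4 arrays can give), and that from 4wd was -0.80 with an SE of 0.35 (limma adjusted p = 0.886). The remaining tested members, miR-136*, miR-154*, miR-299*, miR-376a*, miR-376b* and miR-382*, had 4wd differences from -0.36 to 0.17.

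Of the miR-29 family, regulators of collagen and other matrix genes, 3 star strands were on the array and 2 were tested. None was called. miR-29b* had the smallest p at 4wd. Its level was -5.83, -6.08, -6.94 and -6.09 on the control arrays, -5.28, -5.0, -5.87 and -5.43 on the 4wd arrays, -5.43, -5.74, -6.16 and -6.15 on the 2dr arrays, and -5.44 and -6.30 on the 2wr arrays. Of the 4wd arrays, 3 lay above all control arrays and 1 lay just under the highest. The difference at 4wd was 0.84 with an SE of 0.30 (limma adjusted p = 0.402, exact permutation p = 0.0571), at 0.81 and 0.86 within the slides. It was -0.14 when arrays were not scaled and 1.31, then called, after normexp. It stood at 0.36 for both recovery groups. miR-29c* was far brighter, at -2.79 in control, and differed by 0.11 at 4wd.

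Among the hairpins linked to immune cells and gliosis, 7 star strands were on the array, 3 were detected on some array and 2 were tested, miR-34c* and miR-181a-1*. None was called. miR-34c, whose gene is induced by p53, had a star strand at -5.46, -5.40, -4.04 and -4.99 on the control arrays and at -9.15, -9.15, -7.44 and -2.92 on the 4wd arrays. It was detected on 1 of 4 arrays at 4wd, and that array was the brightest of all 14. The difference was -2.19 with an SE of 1.14 (limma adjusted p = 0.553), -3.72 within slide 1 and -0.66 within slide 2. Without that array, 4wd replicate 4, the fit passed both criteria (limma adjusted p = 0.0350). It then rested on 3 arrays that did not detect the strand, so the size of the difference was not measured. The strand had also entered the test through control alone. After normexp background correction of all arrays the 4wd difference turned to 1.20. miR-181a-1*, from a hairpin known for tuning signals in lymphocytes, differed by -0.66 at 4wd (limma adjusted p = 0.553). The summed level of the 5 myeloid marker miRNAs ran from -3.58 to -2.85 on control arrays, from -2.49 to -1.51 at 4wd, from -1.71 to 0.55 at 2dr and from -2.16 to -0.54 at 2wr, and the part of those cells in these values was not tested.

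Of the neuron-linked hairpins, 6 star strands were on the array and 4 were tested. None was called. Besides miR-9*, miR-124* stood at 0.24 at 4wd and -1.08 at 2dr, miR-138*, from a hairpin that restrains dendritic spine growth, at -0.86 and -1.83, and miR-7a* at -0.38 and -0.46 (limma adjusted p from 0.409 to 0.965 over these 6 values). miR-138* was at -5.27, -5.26, -4.07 and -4.16 on the control arrays and at -6.83, -9.15, -4.85 and -5.26 on the 2dr arrays, with 1 array at the floor. The summed level of the 9 neuronal markers ran from 4.71 to 5.02 in control, from 4.20 to 5.48 at 4wd and from 4.42 to 5.02 at 2dr. That of the 7 oligodendrocyte markers ran from 2.75 to 4.14 in control, from 2.70 to 3.07 at 4wd, from 2.64 to 3.74 at 2dr and from 3.13 to 3.24 at 2wr, with 2 of the 7 detected on no array. The oligodendrocyte list held miR-23a, miR-23b and miR-144 besides miR-219, miR-338 and miR-32, and miR-144 was also on a list for red blood cells. The part of neurons or of oligodendrocytes in the star levels was not tested.

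The miR-30 family had 5 star strands on the array, all detected somewhere, and 4 tested. None was called. The pair sharing a seed, miR-30a* and miR-30e*, differed from control by -0.21 and -0.06 at 4wd and by -0.41 and -0.32 at 2dr. The other such pair, miR-30c-1* and miR-30c-2*, differed by -0.15 and -0.10 at 4wd and by -0.25 and -0.39 at 2dr. The largest difference of the 4 in any comparison with control was the -0.41 of miR-30a* (limma adjusted p = 0.410).

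let-7d* was the only tested star strand of the let-7 family and differed by -0.04 at 4wd and -0.58 at 2dr (limma adjusted p = 0.422). Outside the lists, miR-22*, miR-140*, miR-330* and miR-674* were tested. miR-22* was the star strand with the largest positive difference at 2wr, 0.40 (limma adjusted p = 0.996). Several lists gave no tested star strand. They were the miR-17-92 and related clusters (8 on the array, 2 detected), the miR-15/16 group (5 on the array, 0 detected), the miR-23, miR-24 and miR-27 clusters (4, 2 detected), the clusters of miR-99, miR-125 and miR-10 (4, 1 detected), the epithelial and sensory hairpins (6, 0 detected) and the vessel, muscle and blood hairpins (4, 1 detected).

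**Figure D4:**
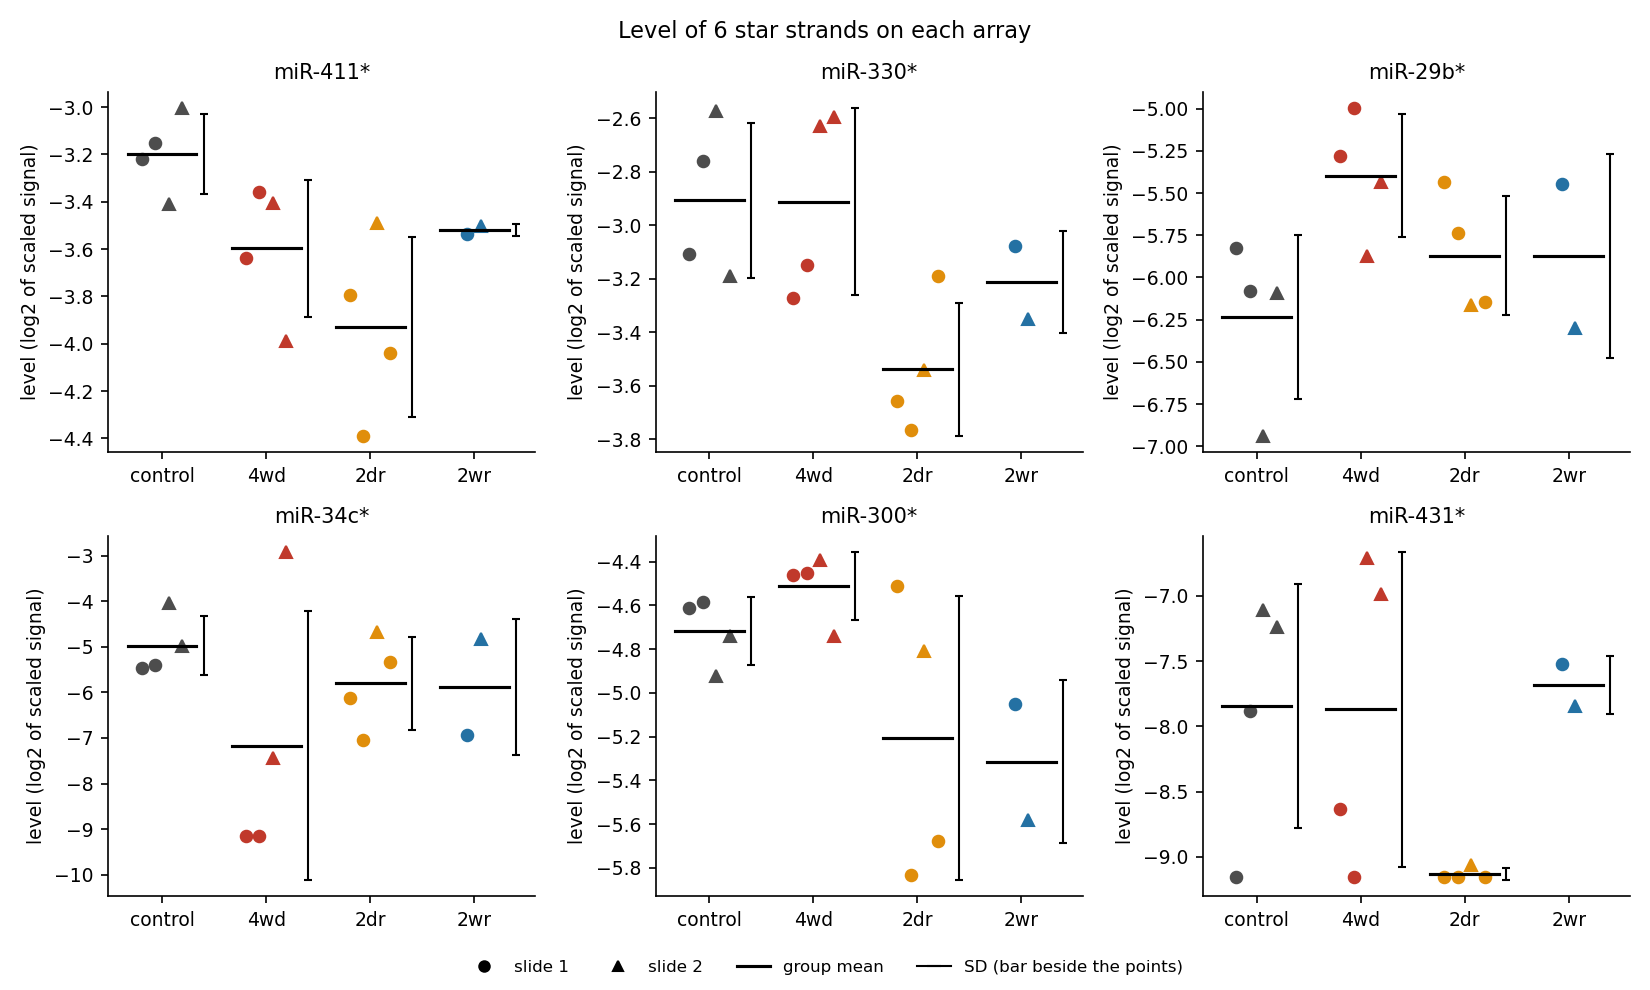
Level of 6 star strands on each array, as log2 of scaled signal, by group, with a separate vertical range in each panel. Circles are arrays of slide 1, triangles are arrays of slide 2, lines are group means and bars beside the points are SDs. The 2dr arrays of miR-411* and miR-330* lie below all control arrays, miR-34c* at 4wd is spread from the floor to the highest value, and miR-431* is at or next to the floor of -9.15 on all 2dr arrays.

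The balance of the arms was then compared between groups over 33 pairs, 22 of them star pairs and 11 named 5p and 3p. The guide miR-138 is encoded by the hairpins Mir138-1 and Mir138-2, and miR-29b by Mir29b-1 and Mir29b-2. Their star strands were matched to Mir138-1 and Mir29b-1 alone. miR-7a* was likewise matched to a numbered copy, miR-7a-1-3p, while its guide miR-7a-5p carries no copy number. For such pairs the ratio is not the balance within a single hairpin. None of the 22 star ratios was called in any of the comparisons. The share called among all 33 pairs was 0% in each of them, for 4wd, 2dr and 2wr against control, for 2wr against 4wd and across the 4 groups. At an unadjusted limma p under 0.05, star ratios numbered 1 of 1 pair at 4wd, 2 of 2 at 2dr, 0 of 1 at 2wr, 1 of 2 for 2wr against 4wd and 0 of 1 across the 4 groups, and the analysis of variance of the methods called 0. Star ratios had median changes of -0.08, -0.12 and 0.09 for 4wd, 2dr and 2wr, beside -0.00, -0.07 and 0.01 over all 33 pairs.

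miR-411* again gave the smallest p. Its log2 ratio to miR-411 was -0.11, -0.07, 0.08 and 0.07 on the control arrays, -0.65, -0.71, -0.16 and -0.45 on the 4wd arrays, -0.69, -0.31, -0.31 and -0.23 on the 2dr arrays, and -0.45 and -0.03 on the 2wr arrays. Every 4wd and every 2dr array lay below every control array, and 1 of the 2wr arrays lay within the control range. The change was -0.49 with an SE of 0.17 at 4wd (limma adjusted p = 0.474, exact permutation p = 0.0286), -0.38 at 2dr (limma adjusted p = 0.480, exact permutation p = 0.0286) and -0.23 at 2wr (limma adjusted p = 0.956). The 4wd change was -0.59 on slide 1 and -0.38 on slide 2, and with the slide as a term its limma adjusted p was 0.0531. The guide miR-411 itself differed by 0.09 at 4wd and -0.35 at 2dr (limma adjusted p = 0.981 and 0.521). The 4wd and 2dr changes share the same 4 control arrays, so they are given side by side and neither stands as a repeat of the other.

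The ratios of 2 star pairs separated fully from control at 4wd, those of miR-411* and miR-138*, and of 2 at 2dr, those of miR-411* and let-7d*, in each case 6.06% of the 33 pairs and all below control. None separated above it at 4wd or 2dr. At 2wr, with 2 arrays, the ratios of miR-29b*, miR-30e* and miR-376b* lay above all control arrays (3 of 22 star ratios, beside 12.1% of all 33) and that of miR-300* below them (1 of 22, beside 9.09%). The ratio of miR-138* was -3.67, -3.93, -3.83 and -3.70 on the control arrays and -5.34, -6.10, -4.38 and -3.97 on the 4wd arrays, a change of -1.17 with an SE of 0.68 (limma adjusted p = 0.610, exact permutation p = 0.0286). It was -1.92 within slide 1 and -0.41 within slide 2. The control arrays agreed within 0.26 of each other, whereas the 4wd arrays were spread over more than 2 units.

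The ratio of let-7d* was -7.38, -7.15, -7.17 and -7.90 on the control arrays and -8.16, -8.64, -8.30 and -8.08 on the 2dr arrays. The change was -0.89 with an SE of 0.33 (limma adjusted p = 0.480, exact permutation p = 0.0286), and -1.03 and -0.77 within the slides. Its components went opposite ways, at -0.58 for let-7d* and 0.32 for let-7d. At 4wd the ratio change was -0.47, with -1.22 on slide 1 and 0.28 on slide 2, so the slides disagreed in sign.

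Further ratio changes did not pass the test either. For miR-34c* the change at 4wd was -1.90 (limma adjusted p = 0.610, and 0.0531 with the slide as a term). Its star strand was detected on only 1 of the 4 arrays at 4wd, so the size of that change was not measured. The strand had also entered the test through control alone, so part of the change was built into the filter. For miR-7a* the ratio change was -1.0 at 4wd (limma adjusted p = 0.610), of which -0.10 was seen within slide 1 and -1.90 within slide 2. For the same pair the difference of 2wr from 4wd was 1.53 with an SE of 0.58 (limma adjusted p = 0.366). Among positive changes the smallest p-values were those of miR-29b*, at 0.53 for 4wd, 0.42 for 2dr and 0.63 for 2wr, and those of miR-376b*, at 0.30, 0.30 and 0.44 (limma adjusted p from 0.480 to 0.943 over these 6 values). The ratio of miR-674* had the largest positive changes at 4wd and 2dr, 0.86 and 1.31, with SEs of 0.88 and with miR-674 at the floor on 1 array of each group. The level of miR-674* itself differed by -0.19 and -0.20, and that of miR-674 by -1.05 and -1.52.

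**Figure D5:**
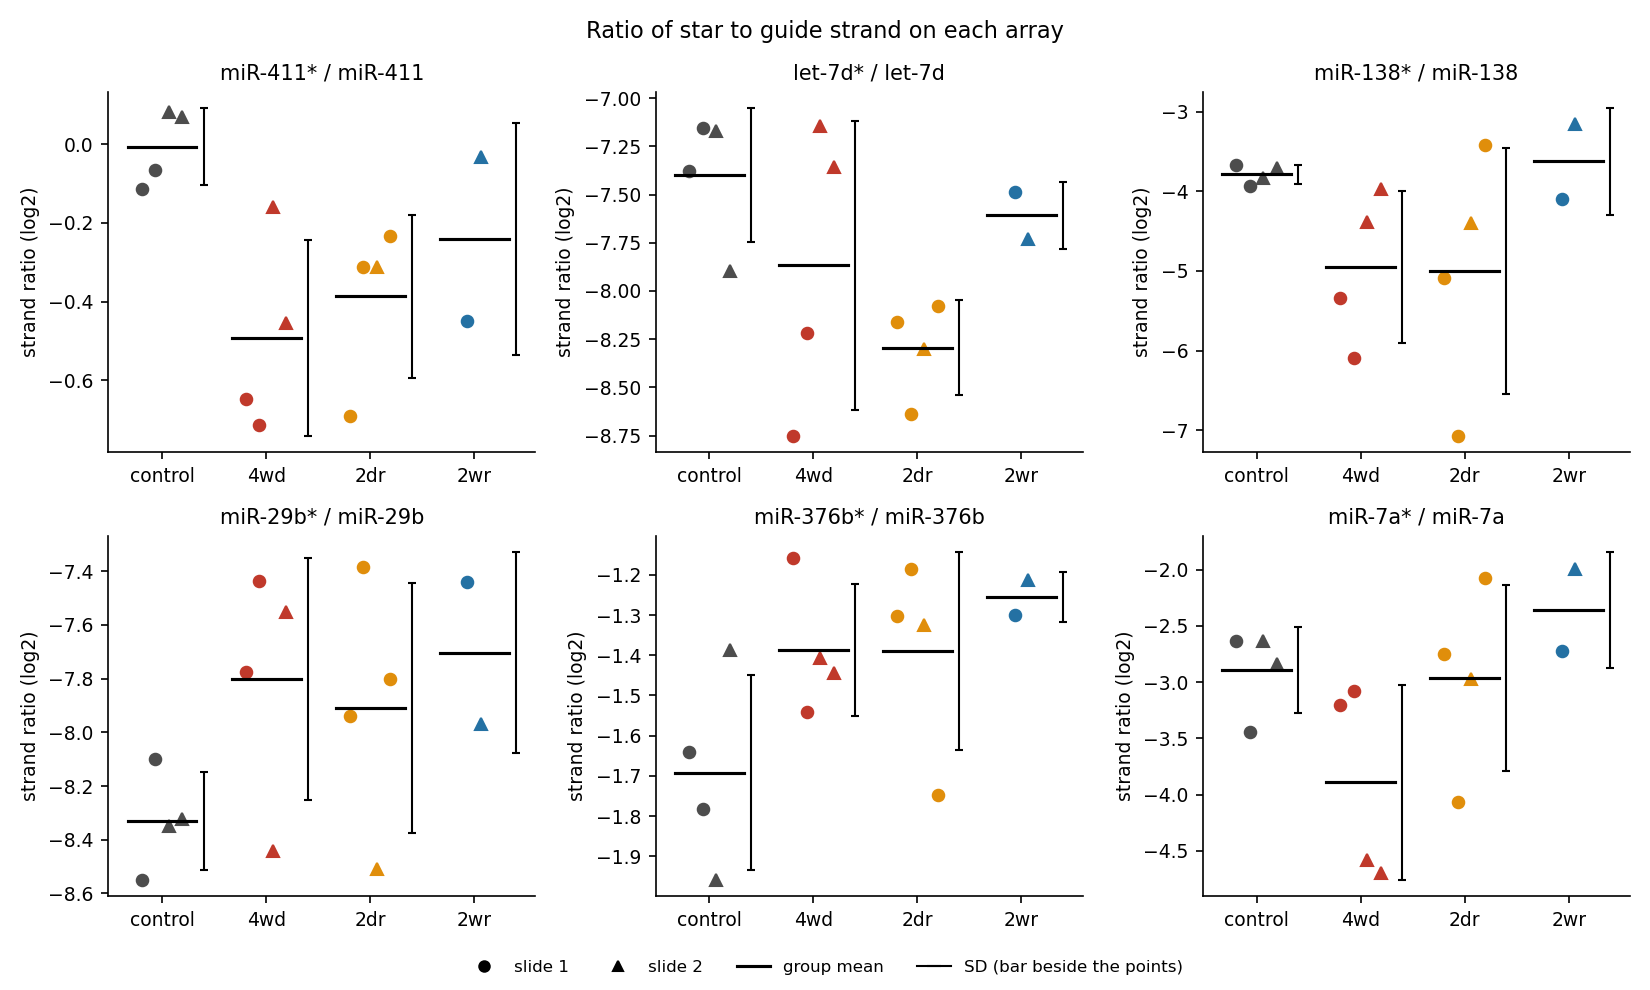
Log2 ratio of star to guide signal on each array for 6 pairs, by group, with a separate vertical range in each panel. Circles are arrays of slide 1, triangles are arrays of slide 2, lines are group means and bars beside the points are SDs. For miR-411* all 4wd and 2dr arrays lie below all control arrays, for let-7d* all 2dr arrays do, for miR-138* all 4wd arrays do, and the other 3 pairs overlap control at 4wd and 2dr.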

How the data were processed

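Agilent mouse miRNA arrays (1 colour) were read for 14 samples. Per the file headers, Feature Extraction 10.5.1.1 had subtracted background and summed the spots of each miRNA into a linear signal intensity, deposited with a detection flag. A deposited table of log2 values scaled by the authors to about the 75th percentile matched 560 of the 566 mouse miRNAs and served as an alternative. The members and lists were chosen with earlier results of these data known.

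Signals were divided by each array's 75th percentile over the 170 miRNAs detected on all arrays, floored at 0.00176 and converted to log2. The 225 mouse miRNAs detected throughout 1 or more groups were fitted with limma 3.58.1 in R 4.3.3, in 1 fit over the 4 groups, and strand ratios (star minus guide) likewise over 33 pairs. A call needed a 2-fold or larger difference together with an adjusted p (Benjamini-Hochberg) below 0.05. Exact two-sided permutation tests went through every split of the arrays of the compared groups, in code checked against scipy 1.17.1 on simulated draws. The code was tested on simulated data. Named were the 3 star strands and 3 ratios with the smallest p in each direction in each comparison with control, the 10 highest in control, pairs with the star brighter on most arrays, and tested strands of fixed lists. Replicate numbers were not taken to pair the samples: of 18 same-number correlations, all 13 within a slide were over 0.1 and all 5 across slides were under it (lowest -0.61), so they followed the slide. The number of arrays limits the precision. Alternatives covered background correction, scaling, floor, filter, fold limit, slide, replicate block, test and each array left out.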

Additional observations from a re-analysis of the deposited data

Results flagged for a closer look

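In groups of 4 arrays, 144 sets of values of a star level or ratio were searched for 1 array that stood apart from the other 3, and 3 were found. Chance alone marks about 1 set in 20. The log2 ratio of miR-9* to miR-9 on 2dr replicate 3 was -1.40, and on the other 2dr arrays it ran from 0.85 to 1.05. That array was the only one of the 2dr group on slide 2. The log2 ratio of miR-382* to miR-382 on 2dr replicate 2, the array with the lowest summed signal of all 14, was -5.30, against -3.32 to -2.95 on the others. The level of miR-431* on 2dr replicate 3 was -9.07 where the other 2dr arrays were at the floor of -9.15, and the strand was detected on none of the 4.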

How the results depend on the processing

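Across 27 alternatives, 268 of 270 counts of called star strands or star ratios were 0, as reported. For 4wd against control, 17 star strands were called after normexp background correction of the spots' median signal (all 17 higher, among 83 of 225 miRNAs called, 82 of them higher, with the median over all miRNAs moved to 0.82), and leaving out single arrays gave 0 to 1, the 1 being miR-34c* without 4wd replicate 4. Of 899 recomputed values for the 35 named results, 867 kept their direction and side of the threshold and 28 turned in sign, 15 of these under normexp, 8 without scaling and 5 with an array left out. In all, 6 of the 899 passed both criteria of a call, 5 of them under normexp and 2 of these with the sign turned. The cause was not tested.

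Under normexp the level differences became 1.20 for miR-34c*, 0.80 for miR-411* and 1.03 for miR-181a-1* at 4wd, 0.020 for miR-411*, 0.026 for miR-330* and 0.32 for miR-431* at 2dr, and 0.13 for miR-300*, 0.033 for miR-30a* and 0.011 for miR-411* at 2wr. The ratio changes became -0.37 for miR-674*, 0.28 for miR-7a* and 0.80 for miR-34c* at 4wd, -0.12 for miR-674* and 0.49 for miR-138* at 2dr, and 0.32 for miR-300* at 2wr. Of the levels at 4wd, those of miR-34c* and miR-181a-1* just given passed both criteria, as did miR-29b* (1.31), miR-300* (1.16) and miR-299* (1.03), which kept their sign. Without scaling, which moved the median over all miRNAs at 4wd to -0.93, the level differences became -0.14 for miR-29b*, -0.77 for miR-300* and -0.81 for miR-299* at 4wd, -0.037 for miR-29b* and -0.14 for miR-22* at 2dr, and -0.023 for miR-22*, -0.057 for miR-29b* and -0.19 for miR-299* at 2wr.

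With single arrays left out, the difference of miR-299* at 4wd ran from -0.0067 to 0.31, negative without control replicate 3 (-0.0067) and without 4wd replicate 1 (-0.0036). At 2wr, where 1 array then remained and was assumed to vary like the other groups, that of miR-29b* ran from -0.075 to 0.79 and that of miR-299* from -0.22 to 0.67, both negative without 2wr replicate 1, and the ratio change of miR-154* ran from -0.75 to 0.0077, positive without control replicate 1. Under the higher floor miR-431* gave no value at 2dr, since all its arrays there and in control lay at that floor. With the replicate number as a block, 0 star strands and 0 star ratios were called in each comparison, and miR-29b* at 4wd had a limma adjusted p of 0.116. Single probes of let-7d*, miR-30c-1*, miR-30c-2*, miR-154*, miR-300*, miR-330*, miR-376a*, miR-376b* and miR-431* differed in sign at 4wd. By contrast, both probes of miR-411* went the same way in each comparison with control. Signal over background limits all of these results, since 67 of the 115 star strands were detected on no array.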
